A study of Mus musculus with 12 samples.

Results

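The genes described are 7 receptors that take up modified lipoproteins, hyaluronan, dead cells and cell debris, and 1 adaptor protein that draws such receptors into clathrin-coated pits. The 8 genes, Msr1, Marco, Scarb1, Stab1, Stab2, Colec12, Lrp1 and Dab2, were matched by symbol to the 56953 genes of the deposited tables, and each was found once. Msr1 and Dab2 had been picked because they rose in eYFP+ macrophages, so their difference between eYFP+ and eYFP- macrophages is given below as a description with no test; the other 6 genes were added for their function. Bone marrow myeloid cells were sorted from female C57BL/6J mice aged 8 weeks that carried Rank cre/+;R26.eYFP fl/+, in which Cre driven by the Rank locus (gene symbol Tnfrsf11a) turns on eYFP for good in cells that once expressed it. Per the study, this marks macrophages of embryonic origin, while descendants of adult hematopoietic stem cells remain eYFP-. The 4 groups hold 3 libraries each, and all groups share this genotype and age with no further treatment described. Macrophages were enriched on F4/80 and gated as F4/80+ VCAM1+ CD206+, then split into eYFP+ and eYFP- cells, and monocytes were gated as CD11b+ F4/80lo and split by Ly6C into Ly6Chi and Ly6Clo cells. Origin was thus read from 1 reporter, and it is not stated whether libraries with the same replicate number came from the same mouse, so the p-values below measure the spread between libraries.

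Scavenger receptors are grouped by structure. Class A receptors (Msr1, Marco, Colec12) are trimeric proteins with a collagen-like stem, and Msr1 and Marco are known from macrophages, where they bind acetylated lipoproteins and bacteria. Scarb1 is the high-density lipoprotein receptor and moves cholesterol esters across the membrane. The stabilins Stab1 and Stab2 are large receptors of sinusoidal endothelium and of tissue macrophages, and Stab2 clears hyaluronan from blood. Lrp1 is a giant member of the LDL receptor family that takes up apolipoprotein E, protease complexes and dying cells. Dab2 binds the cytoplasmic tails of LDL receptor family members through a phosphotyrosine-binding domain and joins them to clathrin and AP-2. In the bone marrow, resident macrophages engulf the nuclei of maturing erythroblasts and aged blood cells.

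Depth ranged from 26390927 to 48618187 counted read pairs per library. The sorting markers went with the labels, since Vcam1 stood at 537841 or more normalized counts (deposited counts scaled by DESeq2's median-of-ratios size factors) in each macrophage library and at 6515 or fewer in each monocyte library, and Ly6c2, which has a near-identical copy in Ly6c1, at 99157 or more in Ly6Chi and 1240 or fewer in Ly6Clo monocytes. Tnfrsf11a had 272 to 372 normalized counts in eYFP+ and 187 to 281 in eYFP- macrophages, 2 ranges that overlap. A pair of libraries stood apart from their groups. In eYFP+ replicate 1 and Ly6Clo replicate 2, genes in the quintile of highest transcript GC content (median 57.2%) lay below those in the lowest quintile (median 41.2%), by a log2 difference of -0.86 and -1.55 relative to the other libraries of the group, against -0.12 to 0.69 in the remaining 10 libraries. In Ly6Clo replicate 2, the counts of Colec12, Stab1 and Scarb1 were lower than the mean of the other two libraries by 119-fold, 21.5-fold and 9.66-fold, while Msr1 and Marco were higher. Transcript GC content of these genes was 43.1%, 57.3% and 48.5%, and that of Msr1 and Marco 38.4% and 54.5%, and the part of base composition in any single value was not tested. The same libraries had fewer genes with a count than the others of their group, 22496 against 27424 and 26858 in eYFP+ macrophages and 16434 against 24769 and 22254 in Ly6Clo monocytes, while the eYFP- libraries had 21330 to 26432. The part of this in the results was not tested. Results for the 8 genes are therefore also given without both libraries where that changes a call, and the wider lists by their counts, a choice made after seeing the data.

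To show the start sites of Marco, Stab2 and Stab1, which were higher in macrophages than in monocytes with both tools used below, and of the adaptor Dab2, the 250 bases before their annotated starts follow, from RefSeq on build GRCm38.p6, written 5′ to 3′ along the gene. Capitals mark GAGGAA, a purine box of the kind bound by the myeloid factor PU.1, or its reverse complement TTCCTC, and CCAAT or its reverse complement ATTGG. Dab2 has a pair of annotated starts.
Marco, chr1:120505025-120505274, minus strand: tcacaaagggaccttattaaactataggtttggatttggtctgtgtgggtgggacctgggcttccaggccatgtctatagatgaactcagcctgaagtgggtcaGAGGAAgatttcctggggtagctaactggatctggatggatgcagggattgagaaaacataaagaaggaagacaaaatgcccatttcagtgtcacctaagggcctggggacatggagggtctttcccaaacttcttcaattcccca
Stab2, chr10:87007943-87008192, minus strand: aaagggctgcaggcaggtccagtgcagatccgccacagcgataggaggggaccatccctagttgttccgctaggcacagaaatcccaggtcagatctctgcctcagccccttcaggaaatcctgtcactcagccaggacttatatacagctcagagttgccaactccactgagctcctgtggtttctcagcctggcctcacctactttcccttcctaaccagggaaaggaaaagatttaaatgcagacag
Stab1, chr14:31168642-31168891, minus strand: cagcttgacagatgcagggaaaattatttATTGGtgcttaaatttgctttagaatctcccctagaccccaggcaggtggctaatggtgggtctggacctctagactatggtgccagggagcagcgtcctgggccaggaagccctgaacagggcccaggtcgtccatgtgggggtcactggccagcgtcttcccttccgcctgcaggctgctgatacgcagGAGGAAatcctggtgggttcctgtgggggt
Dab2 upstream start, chr15:6299539-6299788, plus strand: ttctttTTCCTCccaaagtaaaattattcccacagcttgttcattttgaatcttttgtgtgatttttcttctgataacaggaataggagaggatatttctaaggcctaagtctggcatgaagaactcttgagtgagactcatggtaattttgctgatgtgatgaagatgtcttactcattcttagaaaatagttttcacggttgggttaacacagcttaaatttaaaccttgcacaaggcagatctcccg
Dab2 downstream start, chr15:6386498-6386747, plus strand: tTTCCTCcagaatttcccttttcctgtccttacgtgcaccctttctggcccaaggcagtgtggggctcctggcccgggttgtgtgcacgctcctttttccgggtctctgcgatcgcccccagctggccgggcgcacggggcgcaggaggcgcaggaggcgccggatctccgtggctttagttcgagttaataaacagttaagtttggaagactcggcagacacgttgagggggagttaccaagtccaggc
Both strands were searched for GAGGAA, the TATA box as TATAAA, the AP-1 site as TGANTCA, the E-box as CACGTG and the CCAAT box. GAGGAA was found at -146 from the start of Marco, at -30 of Stab1, and at -244 and -249 of the upstream and downstream Dab2 starts, and not in the 250 bases of Stab2 or Lrp1. It occurs in 23.3% of the 32851 windows of this length in the table, so such a match is common. Of the other motifs only CCAAT was found, at -221 of Stab1 (33.8% of all windows hold it). A match describes the letters of the window and is no measure of binding.

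The genes were first compared between macrophages and monocytes. In the mean of both macrophage groups against the mean of both monocyte groups, Marco, Stab2, Stab1 and Lrp1 were higher in macrophages and Colec12 was lower, 5 of the 6 genes that had not been picked for eYFP+ macrophages, at a DESeq2 adjusted p under 0.05, where 35.4% of all 22385 tested genes passed (20.3% higher and 15% lower). With edgeR's quasi-likelihood test 3 of the 6 passed, all higher (Marco, Stab2 and Stab1), against 35.6% of all genes (19.8% higher). Msr1 and Dab2 carry no test in this comparison, since the macrophage libraries that chose them enter it. Between Ly6Chi and Ly6Clo monocytes 4 of 8 genes passed in DESeq2, with Msr1 higher and Marco, Stab2 and Dab2 lower in Ly6Chi monocytes, where 8.62% of all genes passed (3.66% higher and 4.97% lower); in edgeR 3 of 8 did, against 4.32%. Between eYFP+ and eYFP- macrophages none of the 6 genes open to a test passed in DESeq2 or edgeR, where 2.04% and 0.334% of all genes did, and none had an unadjusted p under 0.05 in either tool. The median log2 fold change was 1.61 over the 6 genes for macrophages against monocytes, -0.63 over all 8 for Ly6Chi against Ly6Clo monocytes and 0.26 over the 6 for eYFP+ against eYFP- macrophages, beside 0.08, 0.02 and 0.05 over all tested genes. Without the pair of libraries poor in GC-rich transcripts, the same 5 of 6 genes passed between macrophages and monocytes (4 higher and 1 lower, against 41.2% of all genes), 5 of 8 between the monocyte groups (1 higher and 4 lower, against 13.6%) and 0 of 6 between the macrophage groups (against 4.61%). In bulk RNA such as this, fewer cells of a type and less RNA per cell cannot be told apart.

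**Figure D1:**
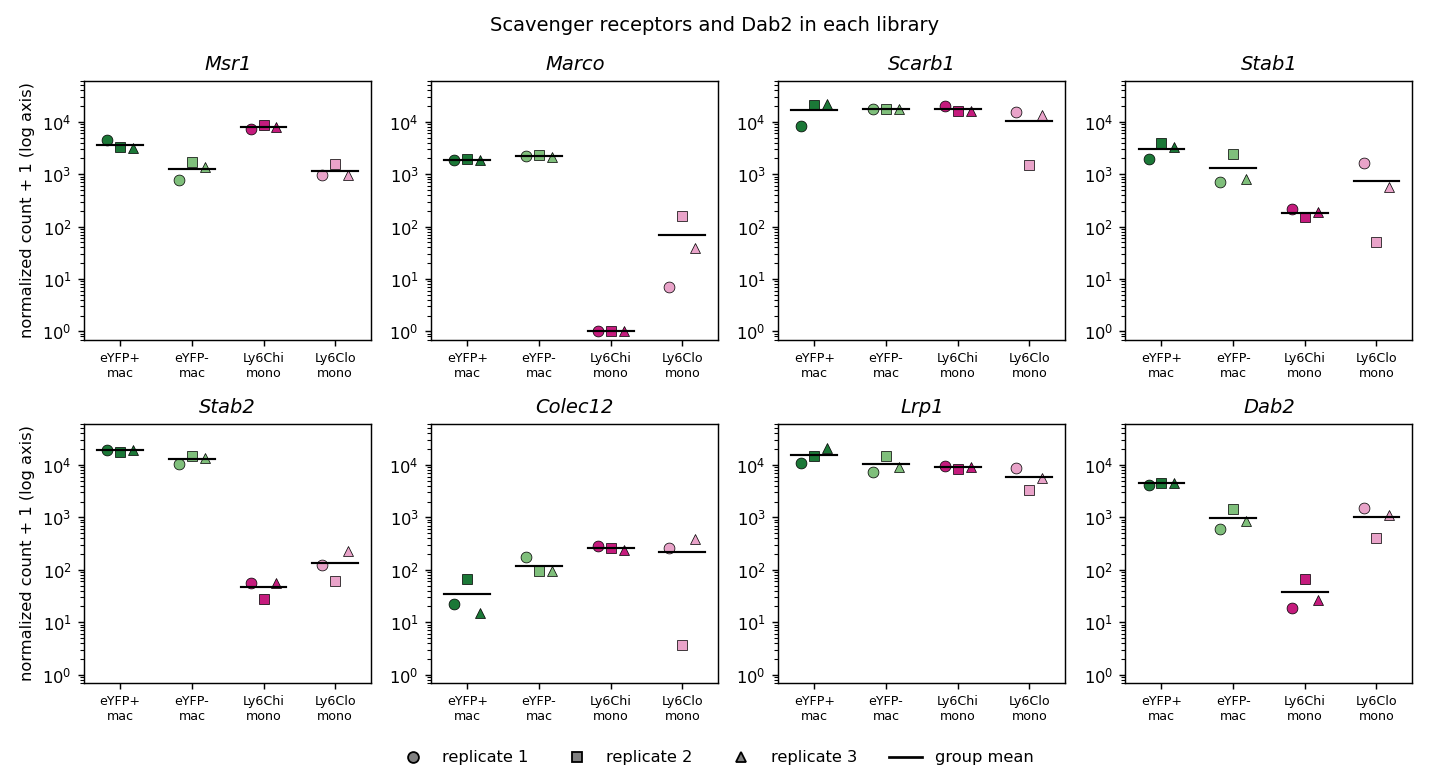
Normalized count plus 1 (log axis) of each gene in each of the 12 libraries, with 1 symbol per replicate and a line at the group mean, for eYFP+ and eYFP- macrophages (mac) and Ly6Chi and Ly6Clo monocytes (mono). Stab2 and Marco separate macrophages from monocytes in each library, Msr1 is highest in Ly6Chi monocytes, and Dab2 is lowest there.

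**Figure D2:**
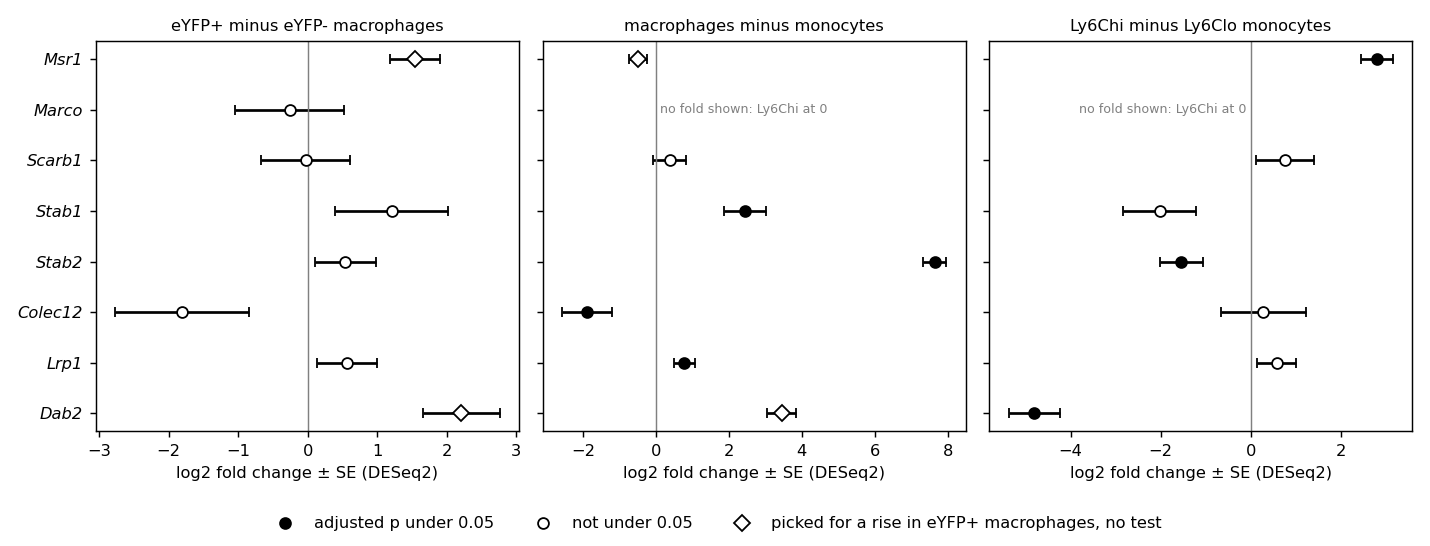
Log2 fold change with its standard error (DESeq2) of the 8 genes in 3 comparisons, filled where the adjusted p is under 0.05, with diamonds for Msr1 and Dab2, untested, where the macrophage libraries that chose them enter. Marco is not drawn where Ly6Chi monocytes are at 0. Of the genes drawn, Stab2 has the largest difference between macrophages and monocytes (7.64), and Msr1 (2.81) and Dab2 (-4.81) point in opposite directions between Ly6Chi and Ly6Clo monocytes.

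Msr1 (ENSMUSG00000025044), the class A receptor SR-A1, was most abundant in Ly6Chi monocytes, above each library of the other groups. It had 7347, 8766 and 8040 normalized counts in the 3 Ly6Chi libraries and 945, 1545 and 958 in the 3 Ly6Clo libraries, with no overlap. The difference was 7.01-fold (log2 fold change 2.81 ± 0.36, SE; DESeq2 adjusted p = 8.82e-13, edgeR adjusted p = 0.000442). In eYFP- macrophages Msr1 had 761, 1690 and 1344 normalized counts, 6.36-fold below Ly6Chi monocytes (log2 fold change -2.67 ± 0.36), and these libraries overlapped with Ly6Clo monocytes (0.14 ± 0.36). The comparison of the monocyte groups has no library for which Msr1 was picked on either side. Those libraries share its fit, though, and so enter its standard error and p-values. The DESeq2 call was kept when only the monocyte libraries were fitted. Both comparisons with eYFP- macrophages include libraries of that choice and carry no test.

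In eYFP+ macrophages Msr1 had 4468, 3378 and 3173 normalized counts, each above the 3 eYFP- libraries, a mean of 3673 ± 696 (SD, n = 3) against 1265 ± 469. The ratio was 2.9, and within same-numbered libraries 5.87, 2 and 2.36. This is the rise for which the gene was picked. Even so, each Ly6Chi library was above each eYFP+ library, and the groups lay apart by 1.13 ± 0.36 on the log2 scale. The log2 fold change of the mean over both macrophage groups against that over both monocyte groups was -0.50 ± 0.25. Both values include libraries that chose the gene and carry no test. Averaging joined a high and a low group on each side, so this contrast describes no single group.

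Marco (ENSMUSG00000026390), the class A receptor of marginal-zone and alveolar macrophages, was a macrophage gene here and was not counted in Ly6Chi monocytes. It had 1863, 1959 and 1850 normalized counts in eYFP+ and 2261, 2358 and 2159 in eYFP- macrophages. All 3 Ly6Chi libraries had 0 counts, and the Ly6Clo libraries had 5.94, 158 and 37.6 normalized counts. Taking 3 counts in each library as the limit that a count of 0 allows (3.18 to 3.64 normalized counts), the mean was at least 519-fold higher in eYFP+ macrophages, at least 620-fold higher in eYFP- macrophages and at least 18.4-fold higher in Ly6Clo monocytes than in Ly6Chi monocytes. The last bound rests on Ly6Clo replicate 2, and without that library the mean of the other two was 21.8 normalized counts, at least 5.97-fold higher. Floors and intervals of this kind cover counting error only, since the reads came from amplified cDNA.

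The DESeq2 adjusted p of Marco was 1.17e-27 between macrophages and monocytes (edgeR 3.03e-05) and 4.6e-07 between Ly6Chi and Ly6Clo monocytes (edgeR 0.0168). Its Ly6Clo level rested most on replicate 2, the library poor in GC-rich transcripts. Against Ly6Clo monocytes, eYFP+ macrophages were 28.3-fold higher (log2 fold change 4.82 ± 0.79, DESeq2 adjusted p = 1.78e-08), and 6.43 ± 0.52 on the log2 scale without the 2 libraries. Between macrophages of the 2 origins, each eYFP+ library was below each eYFP- library, at 0.824 to 0.857 of the library with the same number. That difference was small (log2 fold change -0.26 ± 0.78, 95% interval -1.79 to 1.28; DESeq2 adjusted p = 1), with a standard error of 0.27 and an adjusted p of 0.944 when only the 6 macrophage libraries were fitted.

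Colec12 (ENSMUSG00000036103), a class A receptor with a C-type lectin domain that is best known from endothelium, was scarce. It had 21.6, 65.8 and 14.1 normalized counts in eYFP+ macrophages, 171, 93 and 92.1 in eYFP- macrophages, 280, 264 and 237 in Ly6Chi monocytes, and 260, 2.68 and 380 in Ly6Clo monocytes. The Ly6Clo value of 2.68 came from replicate 2. Colec12 was lower in macrophages than in monocytes in DESeq2 (log2 fold change -1.90 ± 0.68, adjusted p = 0.0173), and edgeR's adjusted p was 0.0626. Without both GC-poor libraries the log2 fold change was -2.12 ± 0.37 (DESeq2 adjusted p = 9.63e-08). Leaving out eYFP+ replicate 3, eYFP- replicate 2 or Ly6Clo replicate 3 raised the DESeq2 adjusted p to 0.0536, 0.0711 and 0.0738. The 3 eYFP+ libraries lay below the 3 eYFP- libraries, with a log2 fold change of -1.81 ± 0.96 (DESeq2 adjusted p = 0.621), which was -2.73 ± 1.07 without eYFP+ replicate 2 (0.269). The DESeq2 adjusted p was 0.0138 without Ly6Clo replicate 2, a library of neither macrophage group that shares the fit, and 0.0638 without both GC-poor libraries.

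On the TPM scale, which divides by transcript length and so allows genes to be compared, the make-up of class A receptors differed between groups. The class was counted as Msr1, Marco, Colec12, Scara3 and Scara5. Its summed level was 101 to 103 TPM in eYFP+ macrophages, 67.1 to 99.2 in eYFP- macrophages, 99.3 to 118 in Ly6Chi and 15.5 to 23.2 in Ly6Clo monocytes. Msr1 made up 98% to 98.6% of it in Ly6Chi and 79.8% to 86.3% in Ly6Clo monocytes. In eYFP+ macrophages Msr1 (47.4% to 55.9%) and Marco (44% to 52.4%) had similar shares, and in eYFP- macrophages Marco dominated (71.4% to 83.6%). The last contrast follows in part from the choice of Msr1.

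**Figure D3:**
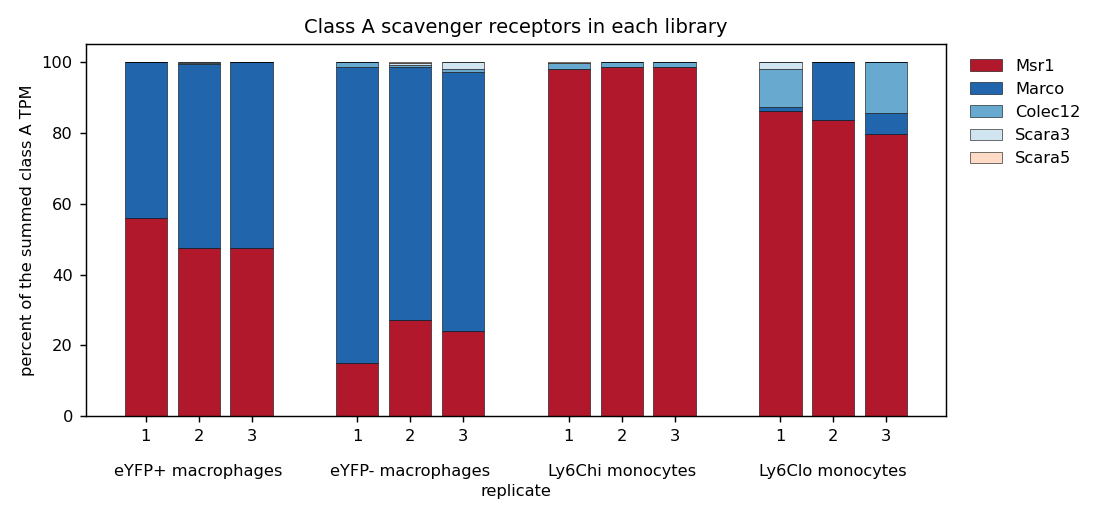
Share of the summed TPM of 5 class A scavenger receptors (vertical axis, percent) in each of the 12 libraries, 3 replicates per group. Msr1 takes 98% to 98.6% in Ly6Chi monocytes, and Marco 71.4% to 83.6% in eYFP- macrophages.

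Stab2 (ENSMUSG00000035459), the hyaluronan clearance receptor, separated macrophages from monocytes more sharply than Stab1 (ENSMUSG00000042286), its close relative. Stab2 had 19459, 17924 and 19716 normalized counts in eYFP+ macrophages and 10647, 14833 and 13697 in eYFP- macrophages. In monocytes it had 56.2, 26.7 and 55.9 in Ly6Chi and 120, 60.3 and 224 in Ly6Clo libraries. The lowest macrophage library was thus far above the highest monocyte library, and macrophages exceeded monocytes by 7.64 ± 0.32 on the log2 scale (DESeq2 adjusted p = 2.61e-120, edgeR adjusted p = 1.18e-07). Marco and Stab2 were the 2 members of 8 whose macrophage and monocyte libraries did not overlap, as in 9.31% of all genes with a count.

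Among monocytes, Stab2 was 2.92-fold lower in Ly6Chi than in Ly6Clo cells (log2 fold change -1.54 ± 0.47, DESeq2 adjusted p = 0.0168), but edgeR's adjusted p was 0.0838. Without Ly6Chi replicate 2 or Ly6Clo replicate 3 the DESeq2 adjusted p was 0.13 and 0.142, and without both GC-poor libraries it was 2.4e-06. Each eYFP+ library was above each eYFP- library, by 1.21-fold to 1.83-fold within numbers, with a log2 fold change of 0.54 ± 0.44 (95% interval -0.33 to 1.42; DESeq2 adjusted p = 0.932). Marco, Stab2 and Colec12 were the 3 of 6 tested members whose eYFP+ and eYFP- libraries did not overlap, as in 8.57% of all genes with a count.

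Stab1 varied more within groups. It had 1928, 3936 and 3334 normalized counts in eYFP+ macrophages, 714, 2459 and 811 in eYFP- macrophages, 213, 152 and 188 in Ly6Chi monocytes, and 1612, 50.9 and 574 in Ly6Clo monocytes. Macrophage and Ly6Clo libraries overlapped, while the Ly6Chi libraries lay below the macrophage libraries. Stab1 was higher in macrophages than in monocytes (log2 fold change 2.44 ± 0.57, DESeq2 adjusted p = 0.000126, edgeR adjusted p = 0.011), and the value was 3.06 ± 0.54 without Ly6Clo replicate 1. Ly6Chi monocytes had less Stab1 than Ly6Clo monocytes by a log2 fold change of -2.02 ± 0.81 that missed the threshold (DESeq2 adjusted p = 0.108). It was -2.57 ± 0.56 without Ly6Clo replicate 2 (DESeq2 adjusted p = 0.000165) and -0.76 ± 0.80 without Ly6Clo replicate 1 (0.574). Between eYFP+ and eYFP- macrophages the log2 fold change was 1.21 ± 0.81 (DESeq2 adjusted p = 0.831; 2.00 ± 0.88 and 0.262 without eYFP- replicate 2), with a ratio of 1.6 to 4.11 within numbers.

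The ratio of Stab2 to Stab1 on the TPM scale was 4.43 to 16.4 in the 6 macrophage libraries and 0.0722 to 1.15 in the 6 monocyte libraries. Macrophages of both origins thus had mostly Stab2 transcripts, and 5 of 6 monocyte libraries mostly Stab1; the exception was Ly6Clo replicate 2. This ratio was formed after the values were seen and carries no test. Because stabilins are also endothelial genes, 14 endothelial markers were examined. They summed to 2344 to 3895 normalized counts in eYFP+ macrophages, 4311 to 5953 in eYFP- macrophages, 559 to 790 in Ly6Chi and 4069 to 8078 in Ly6Clo monocytes. Most of this sum was Pecam1, which blood cells also express. Without Pecam1 the other 13 markers summed to 135 to 330 normalized counts in eYFP+ macrophages, 1039 to 2144 in eYFP- macrophages, 175 to 231 in Ly6Chi and 335 to 845 in Ly6Clo monocytes. Of the last sum, Vwf held 292 to 664, and Tie1, Esam and Gpihbp1 had no count in any Ly6Clo library. Among macrophages, each eYFP+ library had more Stab2 and a lower sum of the 13 markers than each eYFP- library, and the part of endothelial RNA in the stabilin levels was not tested. Stab1 overlaps Nt5dc2 on the opposite strand and Stab2 overlaps 5 antisense or pseudogene annotations; whether counting used strand is not stated.

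Scarb1 (ENSMUSG00000037936), the receptor for high-density lipoprotein, was the most abundant member per length in each library. It had 8253, 21061 and 21435 normalized counts in eYFP+ macrophages, 17297, 17263 and 17321 in eYFP- macrophages, 19966, 15994 and 15754 in Ly6Chi monocytes, and 15407, 1506 and 13698 in Ly6Clo monocytes. The values of 8253 and 1506 came from the pair of libraries poor in GC-rich transcripts, and the other 10 libraries lay between 13698 and 21435. Macrophages and monocytes differed by a log2 fold change of 0.37 ± 0.45 (95% interval -0.52 to 1.25; DESeq2 adjusted p = 0.583), and without both libraries by 0.23 ± 0.12 (interval -0.01 to 0.47; adjusted p = 0.122). The groups with the highest and lowest mean without both libraries were eYFP+ macrophages and Ly6Clo monocytes. They lay apart by 0.73 ± 0.64 with all libraries (DESeq2 adjusted p = 0.438). Without both the distance was 0.50 ± 0.19 (interval 0.13 to 0.87, DESeq2 adjusted p = 0.0313). The pair was picked by these same means, which the p-values do not allow for. Between eYFP+ and eYFP- macrophages the log2 fold change was -0.03 ± 0.64, and 0.29 ± 0.17 without the 2 libraries (interval -0.05 to 0.63). Of the TPM summed over the 8 genes, Scarb1 held 33.8% to 83.7%.

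Lrp1 (ENSMUSG00000040249), the broad endocytic receptor, was present throughout. It had 10735, 14554 and 21013 normalized counts in eYFP+ macrophages, 7320, 14587 and 9234 in eYFP- macrophages, 9485, 8310 and 9270 in Ly6Chi monocytes, and 8941, 3376 and 5736 in Ly6Clo monocytes. All 4 groups overlapped with at least 1 other. DESeq2 called it higher in macrophages than in monocytes (log2 fold change 0.78 ± 0.30, adjusted p = 0.0293), and edgeR gave an adjusted p of 0.05, which does not pass. The DESeq2 adjusted p was between 0.0611 and 0.173 after leaving out eYFP+ replicate 2 or 3, eYFP- replicate 2, Ly6Clo replicate 3 or any single Ly6Chi library. Without both GC-poor libraries the log2 fold change was 0.69 ± 0.23 (DESeq2 adjusted p = 0.00665). Between eYFP+ and eYFP- macrophages the log2 fold change was 0.57 ± 0.43 (95% interval -0.26 to 1.41; DESeq2 adjusted p = 0.887).

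Dab2 (ENSMUSG00000022150), the clathrin adaptor, was low in Ly6Chi monocytes and well counted in each other group. It had 18, 64.4 and 25.5 normalized counts in Ly6Chi monocytes against 1480, 397 and 1133 in Ly6Clo monocytes, with no overlap. The difference was a log2 fold change of -4.81 ± 0.57 (DESeq2 adjusted p = 1.08e-14, edgeR adjusted p = 0.00134), and -5.53 ± 0.61 without Ly6Chi replicate 2. In eYFP- macrophages Dab2 had 602, 1420 and 869 normalized counts, each above each Ly6Chi library, at a distance of 4.75 ± 0.57 on the log2 scale. Ly6Clo monocytes and eYFP- macrophages overlapped (0.06 ± 0.55). Both values with eYFP- macrophages, which the choice of Dab2 used, carry no test. The libraries that chose Dab2 also share the fit of the monocyte comparison.

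In eYFP+ macrophages Dab2 had 4172, 4590 and 4626 normalized counts, 4463 ± 253 (SD, n = 3) against 964 ± 417 in eYFP- macrophages. Each eYFP+ library was above each library of the other groups. The ratio within same-numbered libraries was 6.94, 3.23 and 5.32, which is the rise that chose the gene. The spread between the eYFP+ libraries was small, and the library poor in GC-rich transcripts was 1.1-fold below the mean of the other two. Over both macrophage groups Dab2 was higher than in monocytes by 3.45 ± 0.40 on the log2 scale, a value with no test because the libraries that chose Dab2 enter it.

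Dab2 was then set beside Numb, Numbl, Gulp1 and Dab1, adaptors that share its phosphotyrosine-binding domain and of which Numb sorts Notch and integrins. On the TPM scale Dab2 stood at 41.3, 51.8 and 54.6 in the eYFP+ libraries, where Numb stood at 23.1, 18.2 and 18.1, and in each of them Dab2 was the higher of the pair. In eYFP- macrophages Dab2 stood at 6.16, 17.6 and 9.71 TPM and Numb at 9.27, 18 and 20.3, so that Numb was the higher in each library. The same order held in Ly6Clo monocytes, with 16.3, 3.9 and 11.7 TPM of Dab2 and 21.2, 7.99 and 17.2 of Numb. In Ly6Chi monocytes Dab2 was at 0.186, 0.667 and 0.263 TPM beside 28.4, 27.4 and 30.5 of Numb. Of the TPM summed over these 5 genes, Dab2 made up 63.9% to 73.9% in eYFP+ macrophages, 31% to 47.5% in eYFP- macrophages, 32.7% to 42.4% in Ly6Clo and 0.622% to 2.18% in Ly6Chi monocytes. Numbl, Gulp1 and Dab1 were each at 2.34 TPM or less in each library. The log2 fold change of Numb between macrophages and monocytes was -0.34 ± 0.28. The eYFP+ values follow in part from the choice of Dab2, and this grouping was made after the values were seen.

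**Figure D4:**
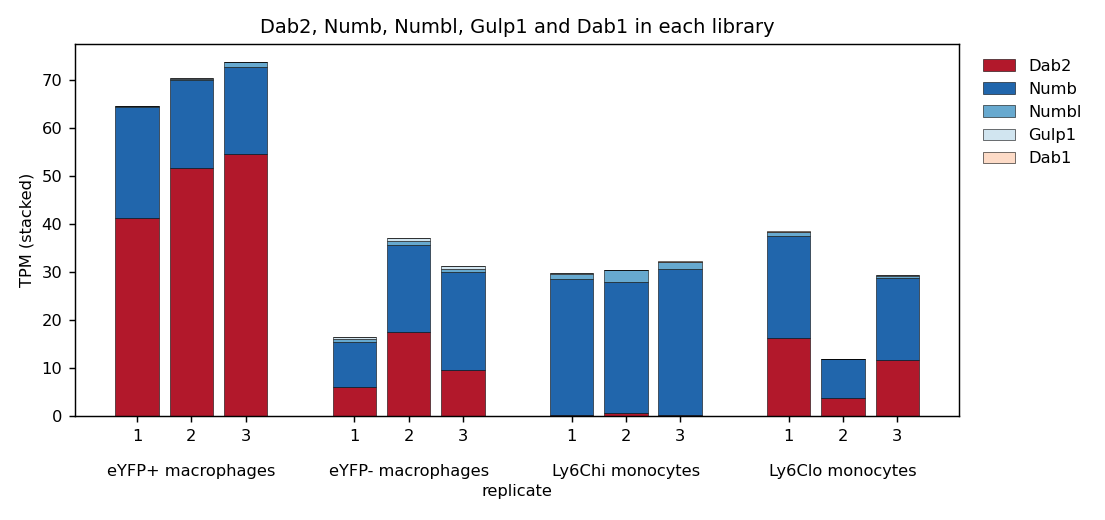
TPM of Dab2, Numb, Numbl, Gulp1 and Dab1, stacked for each of the 12 libraries, 3 replicates per group. Dab2 takes 63.9% to 73.9% of the sum in eYFP+ macrophages, 31% to 47.5% in eYFP- macrophages, 32.7% to 42.4% in Ly6Clo monocytes and 0.622% to 2.18% in Ly6Chi monocytes.

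In the order of group means over all libraries, 4 of the 18 neighbouring pairs of the 6 genes not picked for eYFP+ macrophages differed at a DESeq2 adjusted p under 0.05, where 24.5% and 28% of all genes passed for eYFP+ macrophages against Ly6Chi and Ly6Clo monocytes, 27.4% and 26.3% for eYFP- macrophages against the same, 8.62% between the monocyte groups and 2.04% between the macrophage groups. Msr1 ran from Ly6Chi monocytes over eYFP+ macrophages to eYFP- macrophages and Ly6Clo monocytes, whose libraries overlapped. Dab2 ran from eYFP+ macrophages to Ly6Clo monocytes, eYFP- macrophages and Ly6Chi monocytes. Each neighbouring pair of these 2 genes includes macrophages that chose them, so no p-value is given for these pairs. Marco and Stab2 both had the macrophage groups first, then Ly6Clo and then Ly6Chi monocytes. Among macrophages, Marco ran from eYFP- to eYFP+ and Stab2 from eYFP+ to eYFP-, and this difference missed the threshold for each gene. For Scarb1, Stab1, Colec12 and Lrp1 no neighbouring groups differed at the threshold with all libraries. In the order of means without both GC-poor libraries 6 of 18 neighbouring pairs passed, with Stab1 between Ly6Clo and Ly6Chi monocytes (DESeq2 adjusted p = 1.82e-05) and Colec12 between Ly6Chi monocytes and eYFP- macrophages (0.0354) joining those of Marco and Stab2.

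The levels in Ly6Clo monocytes were set beside those of 11 macrophage markers. In the Ly6Clo libraries Dab2 stood at 54.6%, 14.6% and 41.7% of the macrophage mean and Msr1 at 38.3%, 62.6% and 38.8%. Marco stood at 0.286%, 7.62% and 1.81% and Stab2 at 0.376% to 1.4%. Of the markers, Vcam1, Cd5l and Fcna reached 0.29% to 0.894%, Cd163 1.45% to 1.68%, Spic 1.83% to 4.01%, Mrc1 1.87% to 4.77%, C1qa and C1qb 1.8% to 9.47%, Siglec1 0.276% to 7.55% and Mertk 0.0228% to 2.29%. Adgre1, the F4/80 gene that monocytes also express, reached 33.1% to 43.8%. Dab2 in each Ly6Clo library was thus above all markers except Adgre1 as a share of the macrophage level, while Stab2 lay within their range. For Dab2 and Msr1 the macrophage mean includes the eYFP+ libraries that chose them. Against the mean of eYFP- macrophages alone, which the choice used as well, Dab2 in the 3 Ly6Clo libraries stood at 154%, 41.2% and 118%, Msr1 at 74.7%, 122% and 75.7%, and Adgre1 at 46.4%, 38.9% and 51.5%. Over the whole list the summed level was 42280 to 53281 TPM in macrophages, 1152 to 2720 in Ly6Clo and 325 to 365 in Ly6Chi monocytes.

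**Figure D5:**
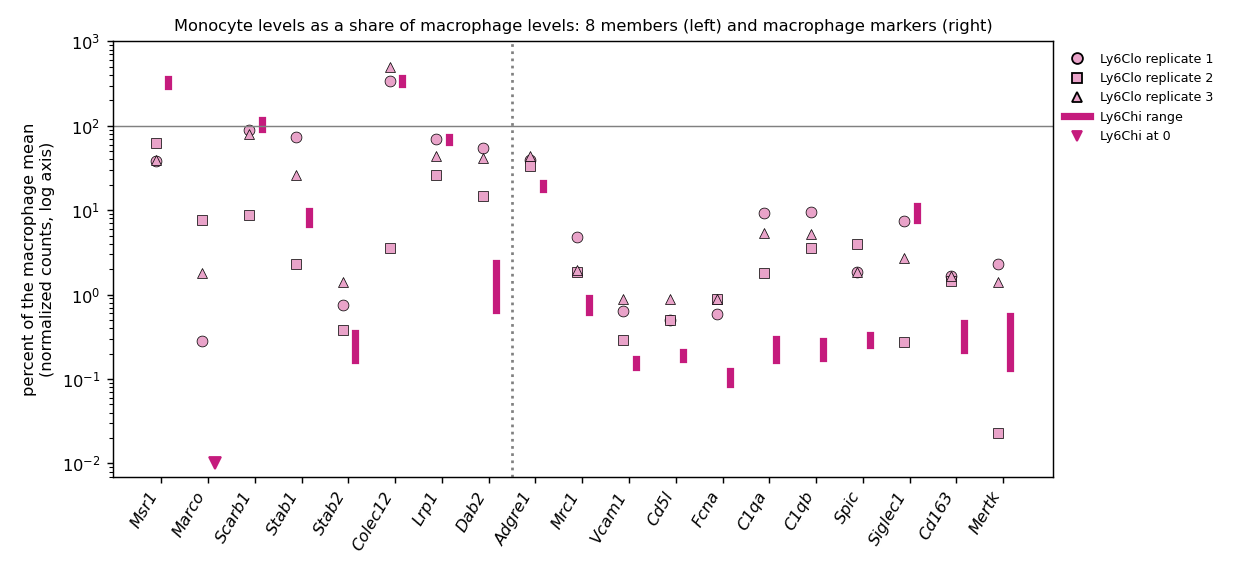
Normalized counts in monocytes as percent of the mean over the 6 macrophage libraries (log axis), with 1 symbol per Ly6Clo replicate and a bar for the range of the 3 Ly6Chi libraries (a triangle where these are at 0), for the 8 genes left of the dotted line and 11 macrophage markers right of it. Dab2 lies at 14.6% to 54.6% in Ly6Clo monocytes, above each marker except Adgre1, and Stab2 at 0.376% to 1.4%. The macrophage mean of Msr1 and Dab2 includes the eYFP+ libraries that chose them.

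Summed markers of other cell types also differed between the groups, which does not show that such cells were present. Summed erythroid markers (10 of 11 matched) were 9021 to 14518 TPM in eYFP+ and 22456 to 35236 in eYFP- macrophages, against 363 to 1417 in monocytes. Neutrophil markers (8 genes) were 120 to 197 TPM in eYFP+ macrophages, 206 to 2543 in eYFP- macrophages, 15732 to 23793 in Ly6Chi and 6723 to 15866 in Ly6Clo monocytes. Of these markers S100a8 and S100a9 had means of 9470 and 3932 TPM in Ly6Chi monocytes. Stromal markers (12 genes) were 42.8 to 69.3 TPM in eYFP+ and 78.8 to 117 in eYFP- macrophages. Within this sum the markers went in opposite directions. Kitl, Bglap and Lum had the higher mean in eYFP+ macrophages (34 against 21.9, 3.14 against 1.51 and 0.273 against 0 TPM). The others were higher in eYFP- macrophages, with Cxcl12 at 8.95 against 47.8 and Adipoq at 3.49 against 17.2 TPM. The part of other cell types in the differences between eYFP+ and eYFP- macrophages given above for Msr1, Dab2 and Colec12 was not tested.

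The genes most alike in pattern, by Pearson's r over the 12 libraries on the deposited variance-stabilised scale among 12934 genes, differed between members. Stab2 was most like Vcam1 (r = 0.997), Cd5l (0.996) and Pld3 (0.995), and Marco most like Pdzk1 (0.993), Mpzl1 (0.991) and Paqr9 (0.99). Msr1 was most like Trim30a (0.966), Atp6v1a (0.958) and Hacd4 (0.953), and Dab2 most like Gm29340 (0.952), Tmcc3 (0.952) and Tmem26 (0.95). Scarb1 was nearest to Zfp768 (0.993), Lrp1 to Arrb1 (0.98), Colec12 to Gtf3a (0.967) and Stab1 to Zkscan7 (0.962). Among members the closest pair was Marco and Stab2 (0.96). The 12 points fall into 4 groups and share 2 libraries of deviating GC content, so these values describe likeness only.

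Wider lists of the pathway were counted next. Of 14 tested other scavenger receptors, 5 were higher and 2 lower in macrophages than in monocytes (median log2 fold change 0.86), beside the 35.4% of all genes that passed. Cd163, the haptoglobin-hemoglobin receptor, and Mrc1, the mannose receptor used in the sort, were higher by 6.97 ± 0.30 and 5.97 ± 0.35 on the log2 scale, and Olr1, a receptor for oxidized LDL, changed by -6.47 ± 0.69 (-7.51 without eYFP+ replicate 2 and -7.58 without eYFP- replicate 3). Between the monocyte groups 4 of the 14 were lower in Ly6Chi cells and 0 higher (8.62% of all genes passed), with Cd36 at -5.87 ± 0.41 (-5.28 without Ly6Clo replicate 2) and Cxcl16 at -3.38 ± 0.37. None passed between eYFP+ and eYFP- macrophages in DESeq2 or edgeR. There 1 of 16 in DESeq2 and 2 of 12 in edgeR had an unadjusted p under 0.05. The share of all genes at that unadjusted cut is not given here or for the lists below, so these counts have no background.

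Of 13 tested members of the LDL receptor family, 6 were higher and 2 lower in macrophages (median 0.73), where 35.4% of all genes passed. Lrp12, Lrp11 and Lrp4 were higher by 4.66 ± 0.34, 4.70 ± 0.56 and 4.23 ± 0.54 on the log2 scale, and Sorl1, a sorting receptor, changed by -2.99 ± 0.28. Lrp11 was at 5.29 without Ly6Clo replicate 2. Ly6Chi monocytes had more Sorl1 (1.44 ± 0.40, DESeq2 adjusted p = 0.00635) and Lrp2 than Ly6Clo monocytes, Lrp2 with 14, 23 and 13 counts against 0, 2 and 0 (edgeR adjusted p = 0.12). These were 2 of 13, beside 8.62% of all genes. The Sorl1 call was lost without Ly6Chi replicate 2 (DESeq2 adjusted p = 0.0538), with edgeR and the replicate block (0.108) and with limma on log2(TPM + 0.1) (0.073), and the Lrp2 call without any single Ly6Chi library or Ly6Clo replicate 1. Between eYFP+ and eYFP- macrophages 1 of the 13 passed in DESeq2, Lrp1b, with 6, 33 and 11 counts against 0, 1 and 1 (adjusted p = 0.0348; edgeR adjusted p = 0.243), beside 2.04% of all genes in DESeq2. The Lrp1b call was lost without eYFP+ replicate 2 or 3 or any single eYFP- or Ly6Chi library (DESeq2 adjusted p up to 0.283). At an unadjusted p under 0.05 there were 4 of 14 family members in DESeq2 and 3 of 13 in edgeR, without a share of all genes beside them.

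Of 30 clathrin adaptors and coat genes, 7 were higher and 4 lower in macrophages (median 0.18), where 35.4% of all genes passed. Itsn1, a scaffold of the coated pit, and Snx9, a membrane-bending protein, were higher by 3.99 ± 0.24 and 1.93 ± 0.21, and Necap1 changed by -0.93 ± 0.27. In the monocyte comparison DESeq2 called 2 higher and 1 lower in Ly6Chi cells (8.62% of all genes passed). Among them were Clta (0.79 ± 0.26, DESeq2 adjusted p = 0.0344) and Epn2 (-3.87 ± 0.92, DESeq2 adjusted p = 0.000794). With edgeR 0 of the 30 were called, where 4.32% of all genes passed. In edgeR 8 of the 30 had an unadjusted p under 0.05, without a share of all genes beside them. Epn2 had 16, 1 and 0 counts in Ly6Chi and 50, 149 and 30 in Ly6Clo monocytes, and its log2 fold change was -7.22 without Ly6Chi replicate 1 and -2.54 without Ly6Clo replicate 2 (DESeq2 adjusted p at most 0.0127 with any 1 library left out). The Clta call was lost without eYFP+ replicate 3 or any single eYFP- or Ly6Chi library (DESeq2 adjusted p up to 0.173). Of 17 tested ligands and partners of these receptors, 6 were higher and 2 lower in macrophages (median 0.75), beside 20.3% and 15% of all genes. Gdf15 and Lpl were higher by 7.92 ± 0.55 and 2.94 ± 0.33, and Plaur, the urokinase receptor, changed by -4.47 ± 0.44. Apoe, a main ligand of Lrp1, was lower in Ly6Chi than in Ly6Clo monocytes (-2.23 ± 0.37, DESeq2 adjusted p = 1.77e-07), and Thbs1 was higher (6.20 ± 1.57, DESeq2 adjusted p = 0.00229, edgeR adjusted p = 0.0559). None of these adaptors and ligands passed between eYFP+ and eYFP- macrophages in DESeq2 or edgeR. At an unadjusted p under 0.05 there were 2 of 30 adaptors in each tool and 0 ligands, again without a share of all genes. Without both GC-poor libraries, the other scavenger receptors, LDL receptor family, adaptors and ligands had 8 of 14, 9 of 13, 17 of 30 and 9 of 16 calls between macrophages and monocytes (41.2% of all genes). Between monocyte groups they then had 6 of 12, 3 of 13, 8 of 30 and 2 of 16 (13.6%), and between macrophage groups 0 of 14, 2 of 13, 2 of 30 and 0 of 16 (4.61%).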

How the data were processed

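RNA was amplified as full-length cDNA, tagmented and sequenced in pairs, with no molecular identifiers described. Per the study's methods, base calls came from bcl2fastq 2.20.0.422, and reads were trimmed, error-corrected, freed of rRNA and aligned with segemehl to GRCm39. The authors deposited counts of unambiguous read pairs per gene (featureCounts), TPM values, and a variance-stabilised table on a scale close to log2. Genes that overlap another lose pairs, and strand use is not stated.

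Groups came from sample titles. Counts were fitted with DESeq2 1.42.0 in R 4.3.3: 1 fit over 12 libraries, group as the only factor, Wald tests, Benjamini-Hochberg adjustment over all tested genes, threshold 0.05, unshrunken log2 fold changes. Alternatives were edgeR 4.0.16, limma 3.58.1 on log2(TPM + 1) and log2(TPM + 0.1), other scalings, filters (10 counts in 3 libraries; no Cook's cutoff), GC correction, the replicate number as a block and leaving out each library. Tests were tried on simulated counts. Symbols matched 91.4% of identifiers. GC content came from GENCODE M21, an annotation of another build, and was known for 96.3% of tested genes.

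The members and lists were chosen with earlier results of these data known. Named were all members, sorting markers and, per wider list, up to 3 genes in each direction with the lowest adjusted p between macrophages and monocytes (mean of at least 50 normalized counts, no overlap), the 2 lowest between monocytes and any called between macrophages. Of the genes that this rule names, 1 is not reported here.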

Additional observations from a re-analysis of the deposited data

How the results depend on the processing

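The calls for Stab2, Stab1 and Marco between macrophages and monocytes, and for Msr1 and Dab2 between Ly6Chi and Ly6Clo monocytes, were kept under each alternative that gave a value. Lrp1 between macrophages and monocytes rests on settings: its DESeq2 adjusted p was 0.057 with total-count scaling and 0.0561 without independent filtering. Marco between the monocyte groups missed the threshold with limma on log2(TPM + 1) (adjusted p = 0.139). Stab2 there gave an adjusted p of 0.178 with only the 6 monocyte libraries, and Stab1 passed after GC correction (0.0309). With limma on log2(TPM + 1), 2 rather than 4 members passed between Ly6Chi and Ly6Clo monocytes. Leaving out 1 library gave 0 to 1 member between macrophage groups, 3 to 5 of the 6 genes not picked for eYFP+ macrophages between macrophages and monocytes, 3 to 5 between monocyte groups, and 3 to 7 of the 18 neighbouring pairs (7 without Ly6Clo replicate 2). Of these pairs 4 passed with all libraries, 2 with limma on log2(TPM + 1) and 7 without both GC-poor libraries in the order of all libraries.

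In the 4 wider lists together, 1 gene passed between macrophage groups, but 0 with edgeR, without independent filtering, with edgeR and the replicate block and with limma on log2(TPM + 0.1), 2 with limma on log2(TPM + 1), 3 with only the libraries of the comparison and 4 without both GC-poor libraries (0 to 3 when 1 library was left out). Between monocyte groups 11 passed, but 5 with edgeR, 4 with edgeR and the replicate block, 6 with limma at either pseudocount and 19 without both libraries (5 to 15 when 1 was left out). Between macrophages and monocytes 34 passed (27 to 39 when 1 was left out), where 35.4% of all genes passed. The share of all genes called moved with the setting too. Between monocyte groups it was 8.62% in DESeq2, 4.32% in edgeR and 13.6% without both libraries. Between macrophage groups it was 2.04%, 0.334% and 4.61%. For the other settings, the replicate block among them, this share is not given. The cause of these shifts was not tested.

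Same-numbered libraries correlated in their deviations from the group means by 0.311, 0.167 and 0.0723 in macrophages and by 0.0714, -0.00528 and 0.00806 in monocytes, and libraries did not all correlate best with their own number. The number was therefore not treated as a pairing. With the replicate block, DESeq2 called 0 of 6 members between macrophage groups, 3 of the 6 not picked between macrophages and monocytes and 4 of 8 between monocyte groups, the adjusted p of Lrp1 and Colec12 between macrophages and monocytes becoming 0.0736 and 0.0526, and 33, 9 and 1 wider-list genes between macrophages and monocytes, monocyte groups and macrophage groups. Depth limits Colec12, the monocyte levels of Marco and Stab2 and the Ly6Chi level of Dab2, which rest on few reads.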
